A study of Mus musculus with 6 samples.

Results

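The tripartite motif (TRIM) genes encode a large family of proteins built from a RING domain, one or more B-boxes and a coiled coil, followed by a C-terminal part that differs between subfamilies. The genes were taken as the protein-coding rows whose symbol is Trim followed by a number, without Trim25, Trim28 and Trim30a, which the selection left out. This gave 65 of the 55573 rows of the table, and 40 of the 65 had enough reads to be tested. Their mRNA levels come from 6 bulk RNA-seq libraries of the mouse liver cancer line Hepa1-6. In 3 libraries the cells carried a CRISPR/Cas9 knockout of Matr3, which encodes the nuclear matrix protein matrin 3, and the other 3 are from wild-type Hepa1-6 cells (labelled WT). All were grown in DMEM with fetal bovine serum, with no other agent named. Whether a group's libraries are separate cultures, and whether the knockout is 1 clone, is not in the labels. The p-values therefore reflect the spread between these libraries alone, which may be technical.

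The RING domain of a TRIM protein recruits an E2 enzyme charged with ubiquitin, and the C-terminal part usually chooses the substrate, so most members act as ubiquitin ligases. Many members with a C-terminal PRY-SPRY domain are induced by interferon and restrict viruses or tune the signalling of RNA and DNA sensors, while others act in chromatin, on microtubules, in muscle or on mRNA. Not every member is a ligase of the RING type: Trim14, Trim16, Trim29, Trim44 and Trim66 are known to lack the RING domain, and 4 of these 5 were expressed well enough to be tested. The knockout comparison asks how this family differs in Matr3 knockout cells, in a study whose title concerns suppression of the type I interferon response by MATR3.

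Library totals ranged from 20736570 to 30794032 counts. Matr3 itself fell but was not lost (log2 fold change -0.71, edgeR quasi-likelihood adjusted p = 0.00270). Knockout library 2 stood apart from knockout libraries 1 and 3 (chi-square of 50.6 and 60.1 per gene, against 3.31 between libraries 1 and 3), and wild-type library 1 from the other wild-type libraries (21.3 and 24.9, against 5.86). Several hepatocyte genes were nearly absent, with 1 read of Alb and 0 reads of Ttr over the 6 libraries together. Afp lay between 2.14 and 5.06 CPM (counts scaled to library size, here with the TMM factors of edgeR). Foxa2 was at 15.2 to 21.4 CPM and Apoa2 at 0.674 to 1.65 CPM. Of 15 liver and hepatoma markers 5 were tested. The 15 summed to 1036 to 1099 CPM in the knockout and 595 to 704 CPM in the wild type, most of it from the epithelial keratin Krt8. Krt8 (log2 fold change 0.88, edgeR quasi-likelihood adjusted p = 0.0020) and Krt18 (0.39, 0.0338) rose, and Afp, Foxa2 and Apoa2 did not pass. Summed markers were at 12.4 to 16.0 CPM in the knockout against 10.7 to 11.9 CPM in the wild type for 8 macrophage and leukocyte genes, nearly all of it Cd68, with Adgre1, Cd3e, Itgam and Lyz2 at 0. The 8 fibroblast and stellate markers summed to 21.3 to 29.7 against 16.7 to 19.9 CPM, with Lrat at 0. Among them Col1a1 rose (log2 fold change 0.81, edgeR quasi-likelihood adjusted p = 0.0198) and Pdgfrb fell (-1.39, 0.0153). The 5 endothelial markers summed to 1.16 to 1.66 against 3.04 to 3.89 CPM, with Kdr at 2 reads in all. Of these, Cdh5 fell (log2 fold change -2.27, edgeR quasi-likelihood adjusted p = 0.00413) and Pecam1 did not pass (-0.09). The part of these marker shifts in the results on TRIM genes was not tested, and in bulk RNA fewer cells of a kind and less RNA per cell cannot be told apart.

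Hepa1-6 cells expressed a wide part of the family, at levels that span more than the fold changes between the groups by far. By deposited FPKM (which divides by gene length and library size, so that genes can be compared), 29 members averaged above 1 and 13 above 10. The highest was Trim35, a PRY-SPRY ligase, at 50.3 FPKM on average, followed by Trim59, which is anchored in the endoplasmic reticulum membrane, at 37.9 to 53.0 FPKM over the libraries, and Trim47 at 37.2 FPKM. Next were Trim44, a RING-less member with a ubiquitin protease-type zinc finger, at 29.1 FPKM, and Trim27, a nuclear and cytoplasmic PRY-SPRY ligase also known as RFP, at 20.6 FPKM. Trim54, a microtubule-binding member best known from muscle, stood at 18.5 FPKM, Trim8 at 18.4 FPKM and Trim41 at 16.4 FPKM. Trim32, an NHL-repeat ligase whose mutation causes limb-girdle muscular dystrophy, stood at 15.5 FPKM and Trim37, which restrains centriole formation, at 12.4 FPKM.

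Several neighbours in this order had overlapping ranges. Trim35 lay at 38.6 to 59.3 FPKM over the 6 libraries, which overlaps the range of Trim59. The ranges of Trim54 (up to 24.5 FPKM), Trim8 (15.5 to 23.7 FPKM) and Trim41 (12.5 to 21.8 FPKM) overlapped too. At the other end, 11 tested members averaged under 1 FPKM, among them Trim66 at 0.409 and Trim68 at 0.343 FPKM.

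**Figure D1:**
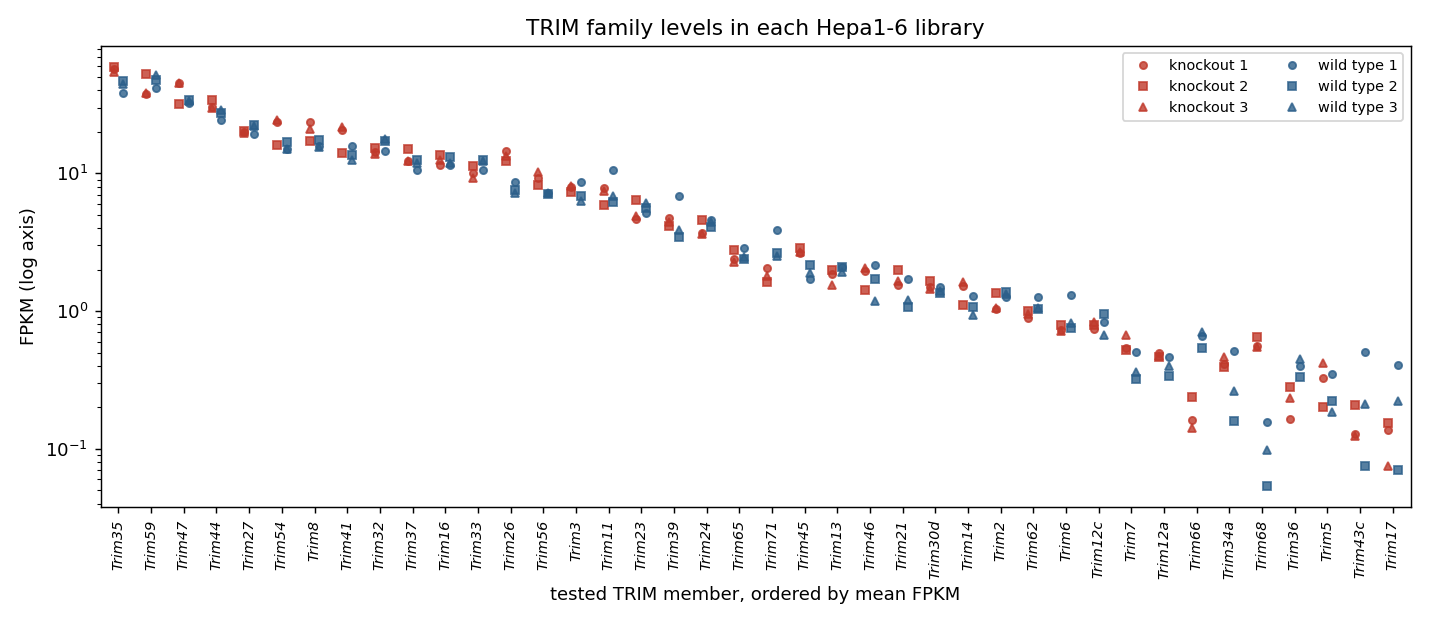
FPKM on a log axis for the 40 tested TRIM members, ordered by mean FPKM, with 1 point per library (red for knockout, blue for wild type; circle, square and triangle for libraries 1 to 3). Trim35 has the highest mean at 50.3 FPKM, 11 members average under 1 FPKM, and the red and blue points of Trim66 and Trim68 stand clearly apart.

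The other 25 members were too low to test. No read was assigned in any library to 15 of them: Trim9, Trim30b, Trim30c, Trim31, Trim34b, Trim38, Trim40, Trim42, Trim50, Trim52, Trim55, Trim58, Trim60, Trim61 and Trim72. For each of these a count of 0 allows up to 3 reads of 157722497, or 0.0190 CPM, counting error only. The remaining 10 had 2 to 48 reads over the 6 libraries. Trim15 had 20 reads in the knockout and 28 in the wild type, Trim69 had 21 and 17, and Trim80 had 7 and 12. Trim63, a muscle ligase that marks proteins for atrophy, had 9 and 9 reads, as did Trim67, while Trim29 had 7 and 7. Trim43b had 9 and 10 reads and Trim43a 6 and 7, and Trim10 and Trim75 had 3 and 2 reads in all. These counts differ too little for any statement on the knockout.

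Between knockout and wild type, 7 of the 40 tested TRIM genes changed: Trim68, Trim26, Trim45, Trim35 and Trim56 rose, and Trim66 and Trim71 fell (adjusted p under 0.05 by the Benjamini-Hochberg method over 14842 tested genes, edgeR quasi-likelihood). That is 17.5% of the tested members, beside 15.2% of all tested genes, so the share of the family that changed was near the background. By direction, 5 members rose where 7.69% of all genes did, and 2 fell where 7.48% did. The median log2 fold change of the 40 was 0.06 against -0.02 for all genes, and the median size of the change was 0.26 against 0.25. All 7 had groups that did not overlap. In all, the groups of 11 of the 40 did not overlap, beside 36.6% of all tested genes, with 7 members higher in the knockout (18.3% of all genes) and 4 lower (18.4%). Within 1.2-fold of no change were 20 of the 40, and the authors' deposited table calls the same 7 members under an adjusted p of 0.05.

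**Figure D2:**
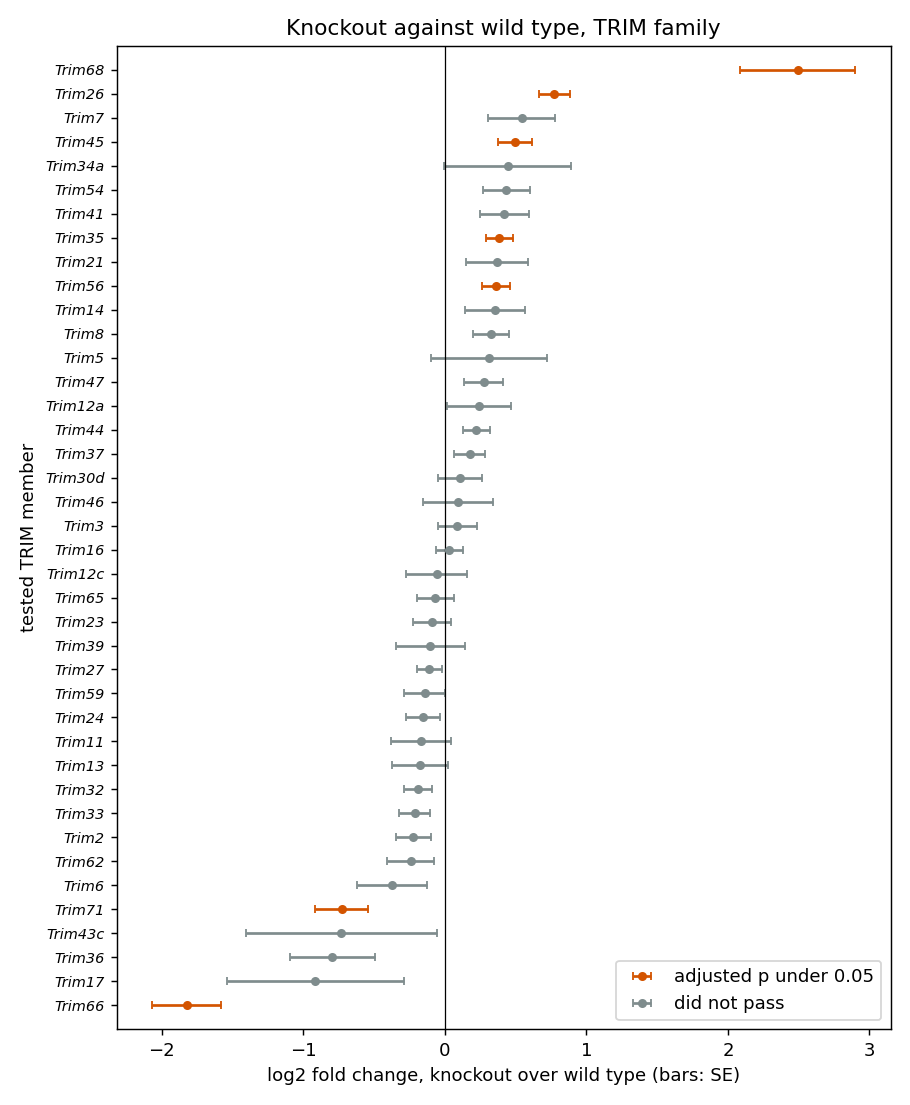
Log2 fold change of knockout over wild type for the 40 tested TRIM members, with bars for the standard error. Orange marks the 7 members with an edgeR adjusted p under 0.05, from Trim66 at -1.82 to Trim68 at 2.49, and grey the 33 that did not pass.

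Trim68 had the largest change of the family and rose from a very low level. Trim68 (ENSMUSG00000073968; chromosome 7, 102326789 to 102336534, minus strand) is a PRY-SPRY ligase related to the autoantigen Trim21. Coordinates here and below are those of the deposited table. It had 45, 70 and 54 reads in the knockout libraries and 12, 5 and 9 in the wild-type libraries, or 1.94, 2.23 and 1.90 CPM against 0.560, 0.187 and 0.342 CPM. Every knockout library lay more than 3-fold above every wild-type library. The fitted difference was 5.63-fold (log2 fold change 2.49, SE 0.408, edgeR quasi-likelihood adjusted p = 0.0069), and the authors' deposited table gives a log2 fold change of 1.26. On the log2(FPKM + 1) scale, which understates changes of low genes, the difference was 0.52.

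Trim66 moved the other way. Trim66 (ENSMUSG00000031026; chromosome 7, 109048213 to 109107341, minus strand) is a RING-less member of the PHD-bromodomain class of chromatin readers and was at 1.64, 2.39 and 1.44 CPM in the knockout against 6.86, 5.46 and 7.19 CPM in the wild type. The lowest wild-type library was above the highest knockout library by more than 2-fold. Trim66 fell 3.54-fold (log2 fold change -1.82, SE 0.243, edgeR quasi-likelihood adjusted p = 0.0031). On the log2(FPKM + 1) scale the difference was -0.47, and the authors' deposited table gives a log2 fold change of -1.38. The other tested members of the PHD-bromodomain class were at higher levels and did not pass. Trim24, a coregulator of nuclear receptors, had a log2 fold change of -0.15, and Trim33, which acts on SMAD signalling and transcription, one of -0.21.

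Trim26 had the smallest adjusted p of the members that rose. Trim26 (ENSMUSG00000024457; chromosome 17, 37148026 to 37170290, plus strand) is an interferon-inducible PRY-SPRY ligase encoded in the major histocompatibility region and reported to act on antiviral signalling. It was at 101, 83.6 and 92.4 CPM in the knockout against 60.2, 51.8 and 49.8 CPM in wild-type cells, a clear gap at a well-measured level of 1291 to 2627 reads per library. Trim26 rose 1.71-fold (log2 fold change 0.77, SE 0.110, edgeR quasi-likelihood adjusted p = 0.00384). The calls of Trim26, Trim66 and Trim68 held in all 17 other settings run, with adjusted p up to 0.0274, 0.0192 and 0.0372.

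The other rises were small. Trim35 (ENSMUSG00000022043; chromosome 14, 66534480 to 66548873, plus strand) had 266, 272 and 252 CPM in knockout cells against 182, 218 and 206 CPM in wild-type cells, with no overlap (1.31-fold, log2 fold change 0.38, SE 0.0966, edgeR quasi-likelihood adjusted p = 0.0323). A noncoding gene on the opposite strand, 1700001G11Rik, overlaps Trim35 by 99 bases and rose as well, with 23 to 27 reads in the knockout libraries and 5 to 12 in the wild-type libraries (log2 fold change 1.56, edgeR quasi-likelihood adjusted p = 0.0475). Strandedness of the libraries is not stated, so reads of this pair cannot be fully told apart, although Trim35 had 3896 to 8532 reads per library. Trim45 (ENSMUSG00000033233; chromosome 3, 100829518 to 100844236, plus strand) carries a filamin-type domain and is reported to restrain MAP kinase signalling. It was at 16.1, 17.2 and 16.1 CPM against 10.5, 13.0 and 11.4 CPM (1.41-fold, log2 fold change 0.50, SE 0.121, edgeR quasi-likelihood adjusted p = 0.0292).

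Trim56 (ENSMUSG00000043279; chromosome 5, 137134498 to 137145063, minus strand), a RING ligase reported to support DNA and RNA sensing and to restrict RNA viruses, was at 86.8, 76.0 and 94.6 CPM in the knockout against 68.2, 65.8 and 66.7 CPM in wild-type cells. Knockout library 2 lay closest to the wild type. The difference was 1.28-fold (log2 fold change 0.36, SE 0.0986, edgeR quasi-likelihood adjusted p = 0.0441). Trim71 (ENSMUSG00000079259; chromosome 9, 114336201 to 114393437, minus strand), an RNA-binding NHL-repeat protein of stem cells and embryos and a target of the let-7 microRNAs, was at 19.4, 15.2 and 16.8 CPM against 36.8, 24.9 and 23.5 CPM. Trim71 fell 1.66-fold (log2 fold change -0.73, SE 0.186, edgeR quasi-likelihood adjusted p = 0.0341), with wild-type library 1 well above the other wild-type libraries.

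**Figure D3:**
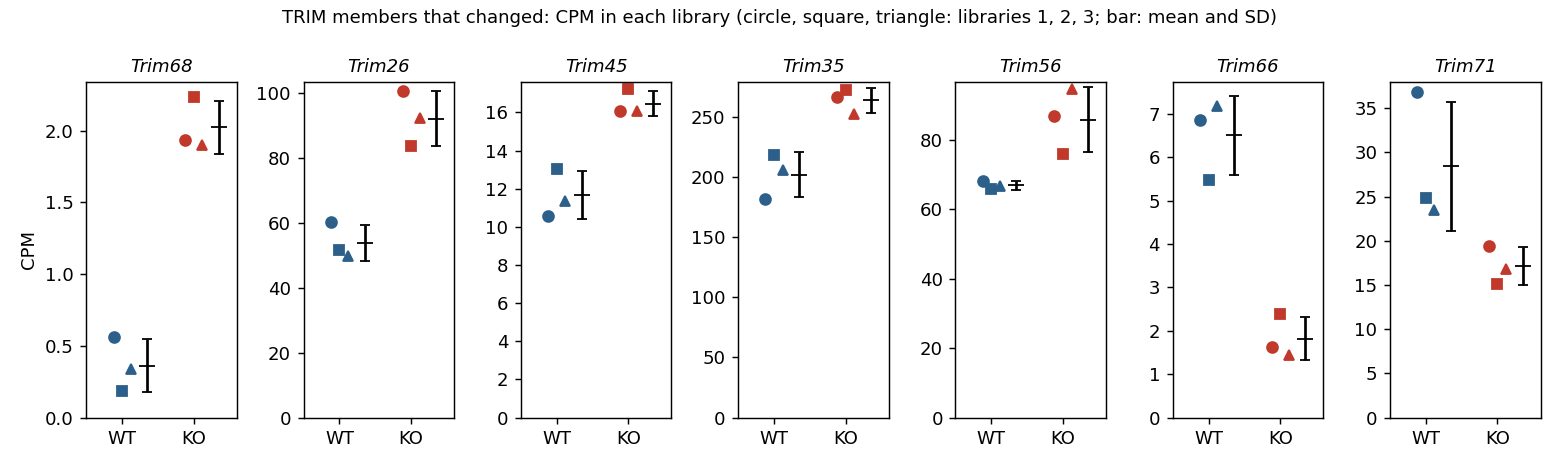
CPM in each library for the 7 TRIM members that changed, with wild type in blue, knockout in red and the mean and SD (n = 3 per group) as a black bar; each panel starts at 0. In all 7 panels the groups do not overlap, with the widest gap for Trim68 (1.90 to 2.23 CPM against 0.187 to 0.560 CPM).

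The 4 smaller changes each lost their call when certain single libraries were left out. Calls fell among all tested genes too, from 15.2% to 5.62% without knockout 1 and 5.43% without knockout 3. The shares were 13.5%, 6.07% and 5.28% without wild type 1, 2 and 3, so such losses were common among all genes. The call of Trim35 ended when knockout library 1 was left out (edgeR quasi-likelihood adjusted p = 0.116), and likewise for knockout 3 (0.0921), wild type 2 (0.0680) and wild type 3 (0.113). That of Trim45 ended on leaving out knockout 1 (0.0848), knockout 3 (0.0886), wild type 1 (0.0542), wild type 2 (0.0504) or wild type 3 (0.112). Trim56 lost its call on leaving out knockout 1 (0.123), knockout 3 (0.157), wild type 1 (0.0647), wild type 2 (0.139) or wild type 3 (0.143). For Trim71 it was knockout 1 (0.0650), knockout 3 (0.107), wild type 1 (0.0571) and wild type 2 (0.0650). Other settings ended calls as well. With limma on log2(FPKM + 1), adjusted p was 0.0669 for Trim56 and 0.0700 for Trim71, and with limma on log2(FPKM + 0.1) 0.0644 and 0.0650. Trim35 lost its call after removal of GC and length trends (0.0551), and Trim71 with library totals alone (0.0530). In these other settings 12.5%, 12.6%, 18.0% and 16.1% of all tested genes passed, in the order given. The direction of the 4 members was the same in each of these fits.

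**Figure D4:**
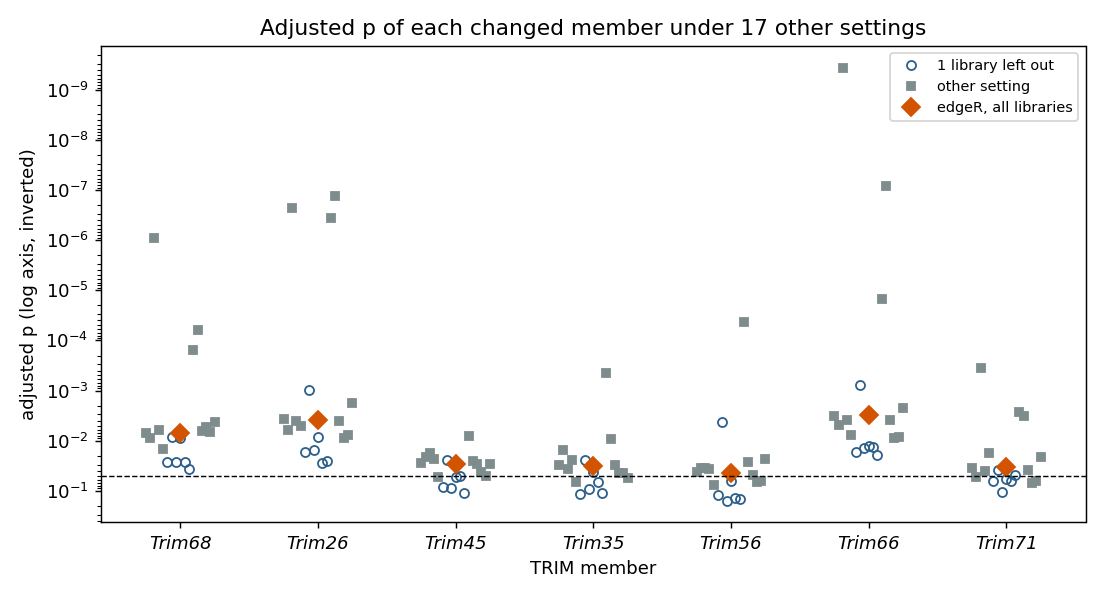
Adjusted p on an inverted log axis for the 7 TRIM members that changed, with the edgeR fit of all libraries as an orange diamond, fits without 1 library as open circles and the remaining settings as grey squares; the dashed line is 0.05. Trim26, Trim66 and Trim68 stay above the line at every point, while Trim35, Trim45, Trim56 and Trim71 have points below it.

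Of 13 members listed as responding to interferon or restricting viruses, 4 had no reads (Trim30b, Trim30c, Trim34b and Trim38) and 9 were tested. The list is not complete. Trim56, which rose and is reported to restrict RNA viruses, was placed in another subgroup, so the counts here leave it out. Among the 9, Trim26 rose and 8 did not pass, or 11.1% called beside 15.2% of all tested genes. In the list, 7 of 9 fitted changes were above 0, beside 47.8% of all tested genes. The median log2 fold change was 0.31 against -0.02 for all tested genes. Only Trim26 had a 95% interval that left out 0. Several of the 9 share sequence, as given below, so their directions are not independent. Trim21, the cytosolic receptor for antibody-coated viruses, was at 5.81, 7.37 and 6.12 CPM in the knockout against 6.53, 4.01 and 4.49 CPM in wild-type cells. The groups overlapped through wild-type library 1, and the log2 fold change of 0.37 had a 95% interval from -0.13 to 0.87 (edgeR quasi-likelihood adjusted p = 0.292). Trim14, a RING-less adaptor of mitochondrial antiviral signalling, was at 6.67, 4.75 and 7.03 CPM against 5.74, 4.64 and 4.07 CPM (log2 fold change 0.35, 95% interval -0.14 to 0.84, edgeR quasi-likelihood adjusted p = 0.300). Trim14 overlaps Nans on the opposite strand over 9852 bases. With knockout 2 and wild type 1 left out together, a fit that called 51.0% of all tested genes, Trim21 (log2 fold change 0.49, edgeR quasi-likelihood adjusted p = 0.0256) and Trim14 (0.65, 0.00451) passed.

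The remaining 6 lie in 1 block of chromosome 7, where 9 members stand between 103868000 and 104157056. Their levels were low, from 0.412 to 6.58 CPM over the libraries. Trim30d had a log2 fold change of 0.11 (95% interval -0.24 to 0.46), Trim12a of 0.24 (-0.28 to 0.76) and Trim12c of -0.06 (-0.55 to 0.43). Trim34a was at 0.45 (-0.58 to 1.47), Trim5 at 0.31 (-0.63 to 1.25) and Trim6 at -0.37 (-0.94 to 0.19). The intervals of Trim34a and Trim5 include a 2-fold rise. These genes are recent duplicates. Of the 50-base stretches in their annotated transcripts (GENCODE M21), 36.3% for Trim5, 33.0% for Trim12c, 39.8% for Trim34a and 10.4% for Trim12a also occur in another gene, and single values in the block are therefore uncertain.

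Some of the interferon-linked members have a promoter feature in common. The core of the interferon-stimulated response element, spelled GAAA, any 2 bases and GAAA again, was sought on both strands in the RefSeq promoters (GRCm38.p6, 250 bases before to 50 bases after the annotated start). A promoter was matched by symbol for 50 of the 65 members, and 8 of these 50, 16.0%, held the core, against 3.99% of 27025 gene symbols. Of the 8, 7 belong to the 12 matched genes of the interferon and antiviral list, which was drawn up from the known biology of these genes. The core was not found in the windows of the list's other matched genes, Trim6, Trim30b, Trim30c, Trim34b and Trim38. It was also absent from the window of Trim56, which is outside the list though reported to restrict RNA viruses. The stretches below are shown because they are the sequence the 8 genes have in common, with the core in capitals (TTTC, 2 bases and TTTC where it lies on the other strand; in Trim21 and Trim26 a pair of cores overlaps by 4 bases).
Trim5: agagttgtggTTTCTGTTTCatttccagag
Trim12a: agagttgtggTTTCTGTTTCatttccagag
Trim12c: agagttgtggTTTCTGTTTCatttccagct
Trim30d: agttctttagTTTCTTTTTCtcagttcctg
Trim34a: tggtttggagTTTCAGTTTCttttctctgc
Trim21: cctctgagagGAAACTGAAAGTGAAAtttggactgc
Trim26: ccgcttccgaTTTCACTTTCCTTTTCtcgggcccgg
Trim2: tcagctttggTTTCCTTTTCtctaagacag

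The stretches of Trim5 and Trim12a were identical, and that of Trim12c differed from them only at its end. These matches are therefore not independent occurrences, although the share of 16.0% counts each gene. On GRCm38.p6 the stretches are at chr7:104288136-104288165 (Trim5), chr7:104315466-104315495 (Trim12a), chr7:104353359-104353388 (Trim12c), chr7:104507871-104507900 (Trim30d), chr7:102565444-102565479 (Trim21) and chr3:84212791-84212820 (Trim2), all on the minus strand. Those of Trim34a (chr7:104244457-104244486) and Trim26 (chr17:36836976-36837011) are on the plus strand. Cores lay close to the start in 7 genes, with the first base 49 bases upstream in Trim5, 41 upstream in Trim30d, 29 upstream in Trim12c, 10 downstream in Trim12a and Trim34a, 13 downstream in Trim21 and 28 downstream in Trim2. In Trim26 it lay 160 bases upstream. All 8 genes were tested, and of these 1, Trim26, changed (12.5%, beside 15.2% of all tested genes), with a median log2 fold change of 0.28. Of the 21 tested members with a promoter and no core, 5 changed (23.8%), 3 upward and 2 downward, with a median of -0.09. A match is a description of letters, not of a bound site.

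The promoters of the members with the largest changes are given as the table lists them, plus strand for Trim26 and minus strand for Trim66 and Trim68, each read along the gene, with the core in capitals where present. That of Trim26 is chr17:36836896-36837195, that of Trim68 chr7:102687278-102687577 and that of Trim66 chr7:109508085-109508384 (GRCm38.p6).
Trim26: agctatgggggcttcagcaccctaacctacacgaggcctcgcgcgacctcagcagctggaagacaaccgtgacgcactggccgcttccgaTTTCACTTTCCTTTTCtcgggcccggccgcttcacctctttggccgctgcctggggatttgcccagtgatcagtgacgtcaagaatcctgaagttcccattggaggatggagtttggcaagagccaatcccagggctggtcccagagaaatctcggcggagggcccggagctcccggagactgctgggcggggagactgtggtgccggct
Trim68: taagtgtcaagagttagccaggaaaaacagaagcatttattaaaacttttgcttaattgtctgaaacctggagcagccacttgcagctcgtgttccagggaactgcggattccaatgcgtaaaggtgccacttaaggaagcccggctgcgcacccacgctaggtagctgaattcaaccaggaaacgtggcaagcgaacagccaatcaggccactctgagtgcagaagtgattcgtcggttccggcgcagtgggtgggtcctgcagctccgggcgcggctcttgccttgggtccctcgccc
Trim66: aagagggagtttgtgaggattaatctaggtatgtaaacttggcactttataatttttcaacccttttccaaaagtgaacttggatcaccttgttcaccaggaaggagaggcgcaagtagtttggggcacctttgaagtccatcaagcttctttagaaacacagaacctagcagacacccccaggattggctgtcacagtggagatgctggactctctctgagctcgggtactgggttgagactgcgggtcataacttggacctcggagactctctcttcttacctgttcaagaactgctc
The core was not found in the windows of Trim68 and Trim66, nor in those of Trim45, Trim56 and Trim71, which says only that these letters are not there.

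Of the 14 nearest tested genes on either side of the 7 members, 1700001G11Rik beside Trim35 and Ppp1r11 beside Trim26 rose, and the other 12 did not pass, a share near the 15.2% of all tested genes. Ppp1r11, an inhibitor of protein phosphatase 1, lies 88958 bases from Trim26 and rose from 77.6 ± 2.48 to 102 ± 5.66 CPM (mean ± SD, n = 3; log2 fold change 0.39, edgeR quasi-likelihood adjusted p = 0.0185). On the other side of Trim26, Trim39 had a log2 fold change of -0.10. Beside Trim66, the ribosomal protein gene Rpl27a had a log2 fold change of -0.11 at a distance of 11013 bases. Both flanking genes of Trim45, Man1a2 (-0.05) and Ttf2 (-0.13), did not pass.

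Among PRY-SPRY members outside the interferon list, 13 of 23 were tested, of which Trim35 and Trim68 rose and 11 did not pass. That is 15.4% called, near the 15.2% of all tested genes, with a subgroup median log2 fold change of -0.07. Trim27 lay at 107 to 111 CPM in the knockout and at 109 to 123 CPM in the wild type, with a log2 fold change of -0.11 and a 95% interval from -0.31 to 0.09. Trim16, which has no RING and takes part in the response to damaged membranes, had 0.03 (-0.18 to 0.25). These intervals leave no room for a change of 1.5-fold in either gene. Trim7 had groups that only just failed to overlap, at 4.13, 3.93 and 5.14 CPM in the knockout against 3.92, 2.43 and 2.74 CPM in the wild type, and its log2 fold change of 0.54 did not pass (edgeR quasi-likelihood adjusted p = 0.163). It shares 516 bases with the far more abundant Gm12184 on the opposite strand. Trim62 did not overlap in the other direction, with a log2 fold change of -0.24 (edgeR quasi-likelihood adjusted p = 0.368). Trim47 and Trim65 overlap on the same strand over 5365 bases and share 179 of their 50-base stretches, so reads could be split between them; Trim65 had a log2 fold change of -0.07.

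The NHL subfamily, which includes RNA-binding members, had 4 tested genes, of which Trim71 fell and 3 did not pass. Trim32 was at 46.5, 49.4 and 44.8 CPM in the knockout against 47.7, 55.5 and 57.3 CPM in the wild type (log2 fold change -0.19, 95% interval -0.42 to 0.03), Trim2 had -0.22 and Trim3 0.09. Both tested members of the microtubule-associated COS-FN3 class did not pass. Trim36 had -0.79 with groups that did not overlap (edgeR quasi-likelihood adjusted p = 0.113), and Trim46, which shares 344 bases with the far more abundant Krtcap2 on the opposite strand, 0.09. The membrane-anchored Trim59, which varied from 127 to 177 CPM within the knockout alone, had -0.14 (95% interval -0.48 to 0.19), and without knockout library 2, where 28.1% of all tested genes passed, it passed at -0.31 (edgeR quasi-likelihood adjusted p = 0.0475). Trim13 had -0.18. Trim44 lay at 171, 192 and 169 CPM against 140, 155 and 162 CPM with no overlap, and its log2 fold change of 0.22 did not pass (edgeR quasi-likelihood adjusted p = 0.162). Trim37 had 0.17 (95% interval -0.07 to 0.42).

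Trim8, Trim41, Trim47 and Trim54 were high in knockout libraries 1 and 3 but not in knockout library 2. Trim54 was at 33.9, 22.9 and 35.1 CPM in knockout libraries 1 to 3, against 21.9, 24.5 and 21.5 CPM in the wild type. Trim41 was at 72.7, 49.4 and 76.6 CPM against 56.8, 47.8 and 44.1 CPM, and it shares 31 bases with the abundant Rack1 on the opposite strand. Trim8, which is reported to act on cytokine signalling through SOCS1, was at 88.2, 63.1 and 77.5 CPM against 60.0, 65.0 and 57.6 CPM, and Trim47 at 125, 87.1 and 123 CPM against 90.5, 94.1 and 92.1 CPM. Knockout library 2 lay below the wild-type range for Trim47 and within it for the other 3 genes. None of the 4 passed (log2 fold changes 0.43, 0.42, 0.33 and 0.28 for Trim54, Trim41, Trim8 and Trim47, edgeR quasi-likelihood adjusted p from 0.114 to 0.218). With no filter on low counts, where 10.6% of 27065 genes passed, Trim41 (edgeR quasi-likelihood adjusted p = 0.0111) and Trim54 (0.0176) passed.

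Their GC contents were 59.9% (Trim54), 58.3% (Trim41), 59.8% (Trim8) and 64.1% (Trim47), against a median of 50.5% for the tested members. Trim3, Trim11, Trim46 and Trim62 also had at least 55% GC. Across all genes, which are not independent replicates, Pearson's r between GC content and a library's deviation was 0.26 for knockout libraries 1 and 3, -0.27 for knockout library 2 and -0.03, -0.03 and -0.16 in the wild-type libraries. The part of this in the results was not tested beyond the fits that follow. The 8 tested members of at least 55% GC had median log2 deviations from the wild-type mean of 0.33, -0.04 and 0.31 in knockout libraries 1 to 3. These medians partly restate the choice of Trim8, Trim41, Trim47 and Trim54, which were named for this pattern. The rest were mixed in knockout libraries 1 and 3, with Trim3 at 0.12 and 0.14 and Trim46 at 0.21 and 0.27. Trim11 was at -0.01 and -0.10 and Trim62 at -0.33 and -0.23. Without knockout library 2, in a fit that called 28.1% of all tested genes, all 4 genes passed (edgeR quasi-likelihood adjusted p = 0.00314 for Trim54, 0.00559 for Trim41, 0.00837 for Trim8 and 0.00385 for Trim47). With each library's trend with GC content and length taken out, Trim41 (edgeR quasi-likelihood adjusted p = 0.0264) and Trim54 (0.0437) passed and Trim8 (0.0550) and Trim47 (0.0886) did not. That fit called 18.0% of all tested genes. The 7 changed members had GC contents from 50.3% to 53.8%.

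**Figure D5:**
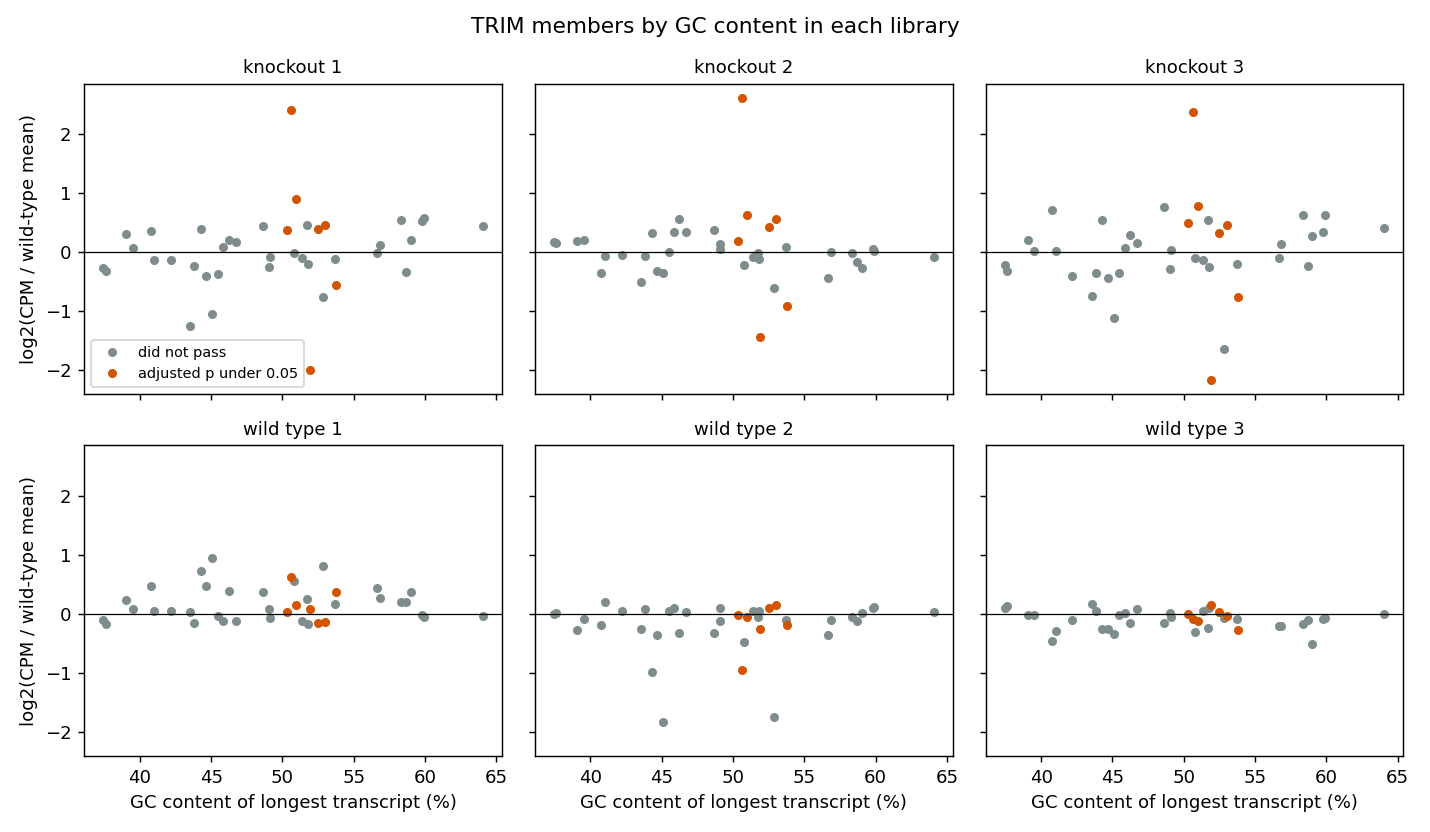
Log2 of CPM over the wild-type mean against the GC content of the longest transcript for the 40 tested TRIM members, 1 panel per library (top row knockout, bottom row wild type). The GC-rich members at the right lie mostly above 0 in knockout libraries 1 and 3 (medians 0.33 and 0.31 for the 8 members of at least 55% GC). Their median is near 0 in knockout library 2 (-0.04), and 0.20, -0.02 and -0.14 in wild-type libraries 1 to 3. Among them, Trim8, Trim41, Trim47 and Trim54 were named for this pattern, and Trim11 and Trim62 lie below 0 in knockout libraries 1 and 3.

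Of 13 family members that carry other symbols, 5 were tested and 0 passed (edgeR quasi-likelihood test), beside 15.2% of all tested genes. The median log2 fold change was -0.16, and 1, Mid1, had an unadjusted p under 0.05, beside 31.0% of all tested genes. DESeq2 called 1 (Mid1), while neither limma fit (voom, or log2(FPKM + 1)) called any. Mid1, a microtubule-bound ligase encoded on the X chromosome, was at 1.16, 0.957 and 1.44 CPM in the knockout against 7.19, 1.42 and 2.05 CPM in wild-type cells, with wild-type library 1 far above the others (log2 fold change -1.57, edgeR quasi-likelihood adjusted p = 0.109). Pml, the organiser of PML nuclear bodies and an interferon-induced gene, was at 66.7, 71.5 and 64.5 CPM against 77.1, 76.8 and 72.1 CPM, with a log2 fold change of -0.16. Rnf135, which ubiquitinates the RNA sensor RIG-I, had 0.24 and Mid2 0.31.

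In the pathway that feeds the TRIM ligases, 29 of 29 genes for ubiquitin, its activating enzymes and its conjugating (E2) enzymes were tested. Of these 1 rose, 1 fell and 27 did not pass, or 6.90% called beside 15.2% of all tested genes, with a median log2 fold change of -0.09. Ube2h rose from 82.2 ± 2.93 to 109 ± 3.73 CPM (log2 fold change 0.41, edgeR quasi-likelihood adjusted p = 0.0141). Ube2n, which builds ubiquitin chains used in antiviral and NF-kB signalling, was at 68.4, 83.5 and 69.2 CPM against 89.3, 98.6 and 104 CPM and fell by 0.40 on the log2 scale (edgeR quasi-likelihood adjusted p = 0.0429). Its cofactors Ube2v2 (-0.48, edgeR quasi-likelihood adjusted p = 0.0593) and Ube2v1 (-1.14, 0.0830) had groups that did not overlap and did not pass. In the edgeR fits, 0 genes of this list passed when knockout 1, knockout 3, wild type 2 or wild type 3 was left out, and 10 passed when knockout 2 was. Of all tested genes, 5.62%, 5.43%, 6.07% and 5.28% passed in the former fits and 28.1% in the latter. The E2 genes most used by RING ligases in vitro, Ube2d2a (0.02) and Ube2d3 (-0.04), had estimates near 0.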

How the data were processed

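RNA-seq was deposited for 3 knockout and 3 wild-type libraries, grouped by sample titles. The authors deposited 1 table with raw counts per gene, FPKM, a signal per group (the authors' mean of scaled counts, not used), and their own log2 fold changes and p-values, per the file headers. The aligner, the counter and the authors' test were not given in the sources used here. GRCm38 and mm10 are the builds in the submitters' processing notes, yet of 52081 gene identifiers shared with the GENCODE M21 annotation of GRCm38 only 1494 have the same coordinates (1 of the 65 TRIM genes), so the build of the table's coordinates is unsettled, and promoter coordinates are on GRCm38.p6.

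The main test on counts was edgeR 4.0.16 under R 4.3.3. Its filterByExpr kept 14842 of 27065 genes with a count, followed by TMM scaling and the quasi-likelihood F test of knockout against wild type with no covariate, adjusted by the Benjamini-Hochberg method over all tested genes. Standard errors and 95% intervals follow from the F statistic. These intervals include the spread between libraries. The limit given for genes with a count of 0 covers counting error only, since reads carry no molecular identifiers. The test was tried on simulated counts with 200 well-counted genes changed, drawn without GC trends or shifts between libraries. It called 28 of 67 genes changed 1.5-fold, 53 of 67 changed 2-fold and 65 of 66 changed 4-fold. Of 157 calls, 11 (7.01%) were false. Alternatives used RLE or library totals, other filters, a replicate block, left-out libraries, DESeq2 1.42.0, limma 3.58.1 (voom, or log2 of FPKM plus 1 or 0.1) and, chosen after seeing the data, removal of GC and length trends with mgcv 1.9.3.

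Named were all called members, the 10 with the highest FPKM, the tested interferon-linked members, those with a log2 change of at least 1, and called genes of the other lists; other members named were chosen after their values were seen. The members and lists were chosen with earlier results of these data known.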

Additional observations from a re-analysis of the deposited data

How the results depend on the processing

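The number of TRIM genes called changed with the libraries used. When 1 library was left out, between 2 and 9 members were called higher (5 with all libraries) and between 1 and 4 lower (2 with all libraries), while 5.28% to 28.1% of all tested genes were called. Without knockout library 2, where the counts were highest, Trim2, Trim8, Trim41, Trim47, Trim54 and Trim59 were called beside the 7. For the ubiquitin, E1 and E2 list (2) the range was 0 to 10, and for relatives under other symbols (0) it was 0 to 1. Without knockout library 2 and wild-type library 1 together, 16 members rose and 10 fell (Trim27, Trim32 and Trim59 among them), with 3 relatives and 17 genes of the ubiquitin list called, while 51.0% of all tested genes were called.

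With library totals alone 1 member fell, and with limma on log2(FPKM + 1) or on log2(FPKM + 0.1) 1 member fell and 1 gene of the ubiquitin list was called. After removal of GC and length trends, 1 relative (Mid2) and 1 gene of the ubiquitin list were called. With no filter on low counts and with DESeq2, 1 relative (Mid1) was called. Of all tested genes, 16.1% were called with library totals alone, 12.5% and 12.6% with the limma fits, and 18.0% after removal of trends. Of 27065 genes with a count, 10.6% were called with no filter and 9.26% with DESeq2. The log2 fold change of Trim12c (-0.06) ranged from -0.18 to 0.065 when 1 library was left out, changing sign without knockout library 1 (0.0074) or wild-type library 2 (0.065), and was 0.054 after removal of GC and length trends. It passed in none of these. With DESeq2 the median log2 fold change of all 27065 genes with a count was -0.12.

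With the replicate number as a block, 2 members rose (Trim26 and Trim68), 2 fell and 1 gene of the ubiquitin list was called, beside 10.8% of all tested genes. Adjusted p was then 0.0661 for Trim35, 0.0541 for Trim45 and 0.0762 for Trim56, at log2 fold changes of 0.39, 0.50 and 0.35. Same-numbered libraries correlated at 0.17, -0.03 and -0.20 in their deviations from the group means, so the numbers were not taken as a pairing.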
